A study of Homo sapiens with 8 samples.

Results

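The 9 genes described here encode the chromatin repressors that a KRAB domain brings to DNA, and they were chosen by name from the deposited table: TRIM28, SETDB1, ATF7IP, CBX1, CBX3, CBX5, EHMT1, EHMT2 and DNMT1. They are 9 of 52576 genes in the table, and all 9 were among the 13979 that averaged 1 RPKM or more and were tested. RPKM, reads scaled to gene length and to the library's reads, is a level that can be compared between genes because it is given per length. Such a comparison rests on the gene lengths used, which the sources here do not give. Polyadenylated RNA was sequenced, per the labels' protocols. The cells were NCI-H2009, an established line from a human lung adenocarcinoma, and every group had been transfected with dCas9-KRAB, a cutting-deficient Cas9 fused to the repressor domain KRAB. The 4 groups of 2 libraries differed in what was transfected next: no guide RNA, a non-targeting guide (no target in the human genome), e3 guide 1, or e3 guide 2, the last of which, like guide 1, is directed to the enhancer e3. So all 8 libraries, the controls included, came from cells given the fusion, and none shows these genes in cells without it. The labels name a single cell line, do not say whether paired libraries are separate cultures, and do not give the source of the KRAB domain or the level of the fusion.

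A KRAB domain has no catalytic activity of its own. It binds TRIM28 (also called KAP1), a scaffold protein, and TRIM28 in turn gathers enzymes and readers of silent chromatin. SETDB1 writes trimethylation of lysine 9 on histone H3 (H3K9), and ATF7IP binds SETDB1 and keeps it stable and in the nucleus. CBX5, CBX1 and CBX3 encode the HP1 proteins alpha, beta and gamma, which read methylated H3K9. EHMT1 and EHMT2 encode GLP and G9a, which act as a pair to write mono- and dimethylation of H3K9, and DNMT1 copies DNA methylation to the new strand after replication. These proteins serve the many KRAB zinc finger factors of a human cell as well as an introduced fusion.

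Between 3811246 and 5657763 reads per library could be inferred from the steps between low values, and the groups were separable as a whole: the first principal component, 38.9% of the variance, placed the no-guide pair at -36.9 and -38.4 and the remaining libraries at 5.74 to 18.5. MYC, the gene that the e3 enhancer is studied for, was at 72.7 to 90.1 RPKM in the 4 control libraries and at 36.2 to 43.4 RPKM in the 4 e3 libraries. All 6 epithelial markers looked at were high (EPCAM, CDH1, KRT8, KRT18, KRT19 and KRT7, with a lowest value of 173 RPKM, for CDH1). Of 5 lung and alveolar markers NKX2-1 (23.2 to 43.2 RPKM) and SFTA3 (2.57 to 8.78 RPKM) were expressed, NAPSA and SFTPB did not exceed 1.30 and 0.117 RPKM, and SFTPC was listed at 0 in every library. Markers of leukocytes, fibroblasts and endothelium were near 0 (PTPRC at most 0.0469 RPKM, CD3E, DCN, LUM and COL3A1 listed at 0, VWF at most 0.0647 RPKM), apart from CD68 (12.3 to 31.8 RPKM) and COL1A1 (3.18 to 6.68 RPKM). PECAM1 was not analysed here.

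TRIM28 stood far above the other genes. Its mean over the 8 libraries was 155 RPKM, higher than 97.8% of tested genes, and 2.26 times the mean of the next gene, CBX1 (68.7 RPKM). DNMT1 (56.3 RPKM), CBX3 (46.4 RPKM), EHMT2 (23.7 RPKM), CBX5 (22.0 RPKM), EHMT1 (18.7 RPKM), SETDB1 (9.65 RPKM) and ATF7IP (3.41 RPKM) followed. The catalytic subunit SETDB1 was thus at the 54.8th percentile of tested genes and its partner ATF7IP at the 25.5th. Neighbours in this order were separate in every library for TRIM28 over CBX1, CBX1 over DNMT1, CBX3 over EHMT2, EHMT1 over SETDB1 and SETDB1 over ATF7IP, without overlap between the ranges of the genes. DNMT1 was above CBX3 within each of the 8 libraries although their ranges overlapped. EHMT2 was above CBX5 in 6 libraries and CBX5 above EHMT1 in 7, so the order of those 3 is not settled by these data. A level of RNA in a bulk sample does not separate fewer expressing cells from less RNA per cell.

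**Figure D1:**
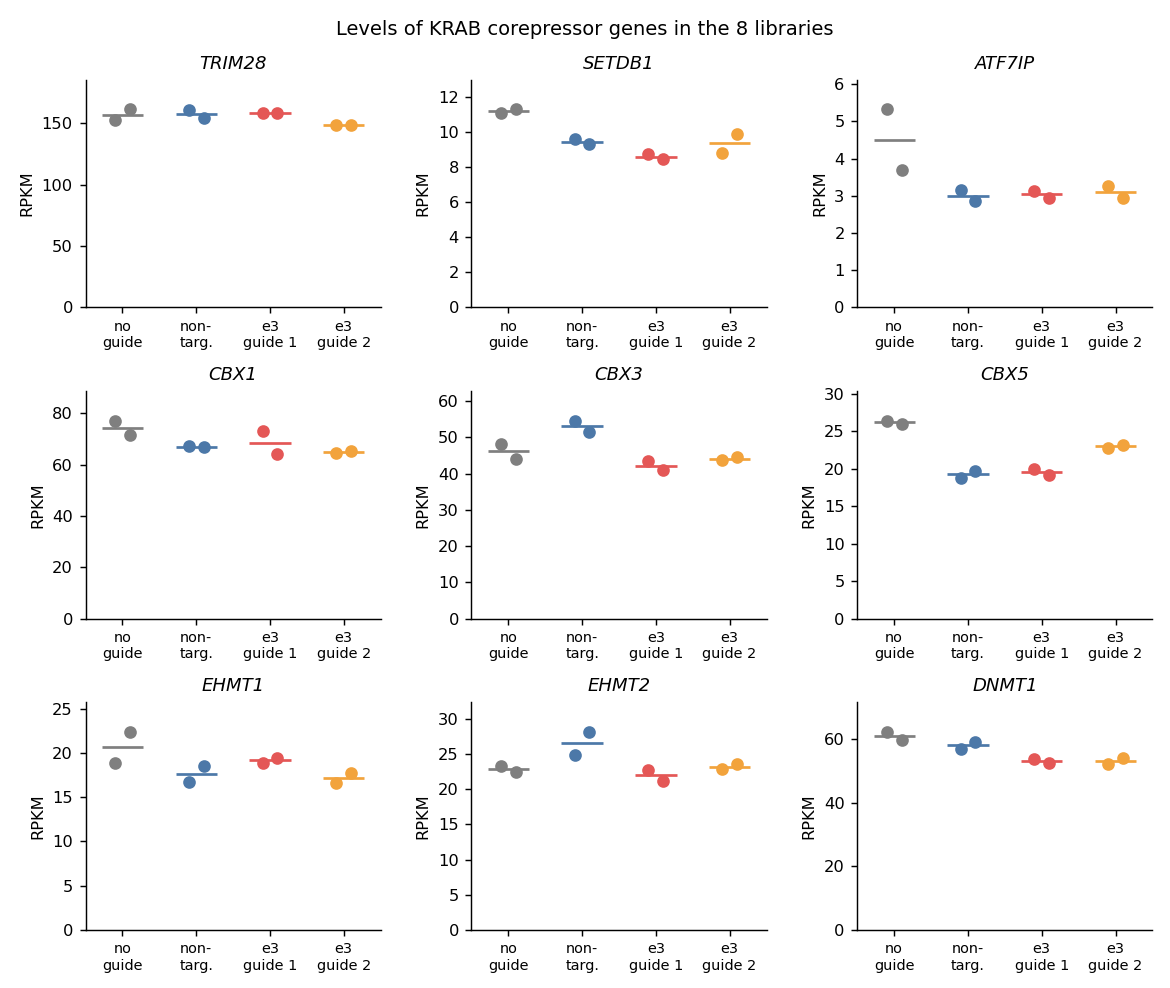
Level of each of the 9 genes in RPKM (y axis from 0, a separate scale per gene) in the 4 groups (x axis); points are the 2 libraries of a group and lines their mean. TRIM28 lies between 148 and 161 RPKM in all 8 libraries, CBX5 and ATF7IP are highest without a guide, CBX3 and EHMT2 are highest with the non-targeting guide, and DNMT1 is lower in the 4 e3 libraries than in the 4 controls.

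TRIM28 (ENSG00000130726.6, chromosome 19), the scaffold that the KRAB domain binds, varied least. The no-guide pair read 153 and 161 RPKM, the non-targeting pair 161 and 154 RPKM, both guide 1 libraries 158 RPKM, and the guide 2 pair 148 and 149 RPKM. Both guide 2 libraries lay below the other 6, the other groups overlapped, and the highest library was 1.09 times the lowest. The share of all tested genes with a pair apart from the other 6 libraries was not counted, here or for the genes below. Between 1816 and 2527 reads lay behind each value, so counting alone gives an error of 1.99 to 2.35%, beside a coefficient of variation of 3.35% over the 8 libraries. The e3 libraries averaged 153 ± 5.62 RPKM and the controls 157 ± 4.57 RPKM (SD, n = 4 each), a log2 change of -0.04 ± 0.05 (SE) that did not pass (limma, adjusted p = 0.721). Its 95% confidence interval runs from 0.901-fold to 1.05-fold on the log2(RPKM + 1) scale, on which every change here is given and which understates changes of low genes. The non-targeting guide against no guide gave 0.01 ± 0.05 (adjusted p = 0.948, interval 0.933-fold to 1.08-fold).

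SETDB1 (ENSG00000143379.7, chromosome 1), the H3K9 methyltransferase bound by TRIM28, was highest without a guide. It read 11.1 and 11.3 RPKM in that pair, 9.59 and 9.32 RPKM in the non-targeting pair, 8.72 and 8.47 RPKM in the guide 1 pair and 8.81 and 9.90 RPKM in the guide 2 pair. Every e3 library lay below both no-guide libraries, while the e3 and non-targeting ranges overlapped. The log2 change was -0.18 ± 0.09 against all controls (adjusted p = 0.296), -0.29 ± 0.10 against no guide alone (adjusted p = 0.0868) and -0.07 ± 0.10 against the non-targeting guide alone (adjusted p = 0.755), and none passed in limma. With 140 to 222 reads per library the counting error was 6.71 to 8.45% of a single value.

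ATF7IP (ENSG00000171681.8, chromosome 12), the partner of SETDB1, was the lowest and the most variable of the 9. The no-guide pair read 5.32 and 3.68 RPKM, the non-targeting pair 3.16 and 2.85 RPKM, the guide 1 pair 3.14 and 2.95 RPKM and the guide 2 pair 3.25 and 2.94 RPKM. Both no-guide libraries were above the other 6, but they differed from each other by more than the other 6 did. The changes of -0.44 ± 0.18 between the control groups, non-targeting against none (adjusted p = 0.165), and -0.42 ± 0.16 for the e3 guides against no guide (adjusted p = 0.120) did not pass, and the e3 libraries relative to the non-targeting pair gave 0.03 ± 0.14 (adjusted p = 0.945). Without the first no-guide library the change between the control groups was -0.23, and without the second it was -0.66. The ratio of SETDB1 to ATF7IP, per length, was 2.09 in the first no-guide library and 2.71 to 3.37 in the other 7.

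The order of the groups differed between the HP1 genes. CBX5 (HP1 alpha, ENSG00000094916.8, chromosome 12) read 26.4 and 26.0 RPKM in the no-guide pair, 18.8 and 19.7 RPKM in the non-targeting pair, 19.9 and 19.1 RPKM in the guide 1 pair and 22.8 and 23.2 RPKM in the guide 2 pair. The no-guide libraries were above all others, and those of guide 2 lay between them and the remaining 4. CBX5 fell by 0.43 ± 0.07 with the non-targeting guide against no guide, to 0.735 of the level in RPKM (limma, adjusted p = 0.00911), in a comparison that called 12.4% of tested genes, 5.81% as lower. The call was lost without the first no-guide library (change -0.41, adjusted p = 0.0529) and without the first non-targeting library (-0.39, adjusted p = 0.0619). Against no guide the e3 guides gave -0.29 ± 0.10 (adjusted p = 0.0781), against the non-targeting guide 0.13 ± 0.10 (adjusted p = 0.497), and guide 2 against guide 1 gave 0.23 ± 0.07 (adjusted p = 0.360), none of which passed.

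CBX3 (HP1 gamma, ENSG00000122565.13, chromosome 7) was highest in the non-targeting pair and lowest in the guide 1 pair, and CBX5 was low in both of these groups. The no-guide pair read 48.3 and 44.1 RPKM, the non-targeting pair 54.6 and 51.6 RPKM, the guide 1 pair 43.5 and 40.9 RPKM and the guide 2 pair 43.7 and 44.6 RPKM. Every e3 library was below both non-targeting libraries, whereas the e3 and no-guide ranges overlapped. CBX3 fell by 0.29 ± 0.06 in the e3 libraries relative to the non-targeting pair, to 0.813 of the level in RPKM (limma, adjusted p = 0.0351), where 6.84% of tested genes were called, 3.54% as lower. The call was lost when any of the 6 libraries was left out, with changes from -0.33 (without the second non-targeting library, adjusted p = 0.144) to -0.25 (without the first, adjusted p = 0.246) and adjusted p-values of at least 0.0584. It did not pass against no guide (-0.09 ± 0.07, adjusted p = 0.398) or against all controls (-0.19 ± 0.07, adjusted p = 0.169). Among 8 CBX3 pseudogenes listed only CBX3P9 had reads, at 1.57 to 5.82 RPKM. How reads shared with such copies were treated is not given, so the value of CBX3 is uncertain to an unknown extent.

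CBX1 (HP1 beta, ENSG00000108468.9, chromosome 17) had the highest RPKM of the HP1 genes. It read 77.2 and 71.5 RPKM in the no-guide pair and 67.3 and 66.8 RPKM in the non-targeting pair. The guide 1 pair read 73.0 and 64.1 RPKM and the guide 2 pair 64.7 and 65.4 RPKM. CBX1 had 712 to 1067 reads per library and CBX5 909 to 1611, so their order in RPKM rests on the gene lengths used. The no-guide pair lay above the non-targeting and guide 2 pairs, the guide 1 libraries lay far apart and spanned both of those pairs, and no comparison called it. Its change was -0.08 ± 0.07 against all controls (adjusted p = 0.549, interval 0.849-fold to 1.05-fold) and -0.01 ± 0.07 against the non-targeting guide alone (adjusted p = 0.969).

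Within the summed HP1 level, CBX1 made up 47.8 to 53.5%, CBX3 31.2 to 38.8% and CBX5 13.4 to 18.3%. The ratio of CBX5 to CBX3 separated the groups without overlap: it was 0.547 and 0.588 in the no-guide pair, 0.344 and 0.382 in the non-targeting pair, 0.458 and 0.467 in the guide 1 pair, and 0.521 and 0.520 in the guide 2 pair. A ratio within a library does not depend on the scaling between libraries. It describes CBX5 and CBX3 together and does not show which of them differed. It was looked at after the values were known, so it has no test, and whether these genes changed unequally was not tested. In the non-targeting libraries, where the ratio was lowest, the summed level of the 6 epithelial markers was also lowest (2654 to 2805 RPKM, against 3037 to 3454 RPKM in the other 6), as was that of 16 DNA replication genes (729 to 753 RPKM, against 770 to 823 RPKM). The members of these sums did not move alike. Relative to no guide KRT7, KRT8, KRT18 and KRT19 were called lower there, while EPCAM gave 0.03 and CDH1 -0.07, neither called. Of the replication genes MCM2 and MCM6 were called lower and RRM2 higher. Between the controls the summed level of the 5 lung markers went from 50.6 to 52.3 RPKM in the no-guide pair to 27.0 to 34.7 RPKM in the non-targeting pair, NKX2-1 falling by 0.70 and SFTA3 by 0.92 (adjusted p = 0.00566 and 0.0212), and CD68 rose by 0.76 (adjusted p = 0.00215). The part of these differences in the results for CBX5 and CBX3 was not tested.

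**Figure D2:**
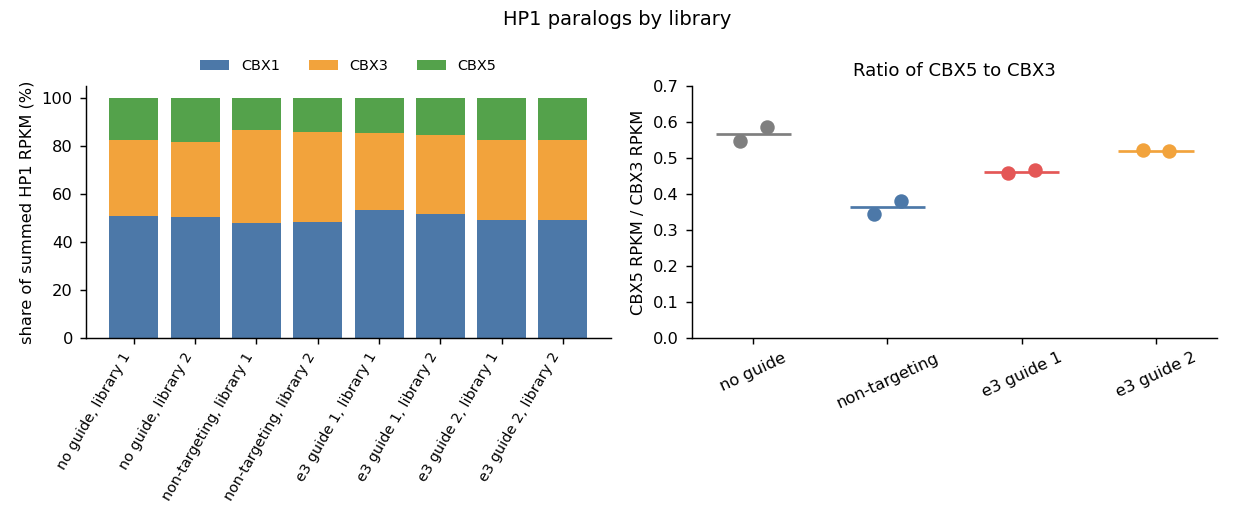
Left, share of CBX1, CBX3 and CBX5 in their summed RPKM (y axis, percent) for each of the 8 libraries (bars); right, RPKM of CBX5 divided by that of CBX3 (y axis from 0) by group, with points for libraries and lines for the group mean. CBX1 holds 47.8 to 53.5% everywhere, and the ratio runs from 0.344 in a non-targeting library to 0.588 in a no-guide library.

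Start-site sequences were available from RefSeq (GRCh38.p14) for 8 of the 9 genes, all but TRIM28, as windows from 250 bases before to 50 after a start. The deposited values were made on hg19, per the submitters' processing notes, and these windows serve only to show sequence. The windows of CBX3 and CBX5 are shown because the ratio of these HP1 genes separated the groups. That of HNRNPA2B1 is shown because this gene lies head to head with CBX3, with 697 bases between the starts. Capitals mark every CACGTG (the E-box, a core that MYC with MAX can bind), GGGCGG or CCGCCC (the GC box), and CCGGAAG or CTTCCGG (a core bound by ETS factors), each searched on both strands.
CBX3, plus strand, chr7:26201193-26201492: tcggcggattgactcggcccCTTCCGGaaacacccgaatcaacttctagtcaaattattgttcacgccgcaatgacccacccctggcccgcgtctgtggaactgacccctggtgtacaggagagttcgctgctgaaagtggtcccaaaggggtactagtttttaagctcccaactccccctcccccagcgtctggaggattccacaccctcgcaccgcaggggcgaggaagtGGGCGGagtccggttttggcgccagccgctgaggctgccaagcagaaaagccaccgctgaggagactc
HNRNPA2B1, minus strand, chr7:26200697-26200996: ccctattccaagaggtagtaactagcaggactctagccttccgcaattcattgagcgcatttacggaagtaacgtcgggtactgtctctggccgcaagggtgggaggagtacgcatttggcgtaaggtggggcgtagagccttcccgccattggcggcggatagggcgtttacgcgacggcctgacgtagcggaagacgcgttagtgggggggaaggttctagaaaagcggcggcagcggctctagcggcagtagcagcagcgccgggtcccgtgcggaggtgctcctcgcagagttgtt
CBX5, minus strand, chr12:54280073-54280372: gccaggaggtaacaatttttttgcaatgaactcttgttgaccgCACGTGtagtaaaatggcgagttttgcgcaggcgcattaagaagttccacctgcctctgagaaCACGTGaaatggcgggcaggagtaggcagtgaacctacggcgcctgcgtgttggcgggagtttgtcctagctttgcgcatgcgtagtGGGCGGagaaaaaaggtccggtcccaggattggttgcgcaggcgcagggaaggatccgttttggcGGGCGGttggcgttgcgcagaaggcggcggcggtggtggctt
CBX3 holds 1 GC box and 1 ETS core and no E-box, and the most upstream of the 3 CBX5 windows holds 2 E-boxes and 2 GC boxes. HNRNPA2B1 holds none of these letters. Among all 35116 windows of this length 7.26% hold the E-box, 45.0% the GC box and 10.3% the ETS core. Of the 16 windows of the 8 genes, several of which share a gene or overlap, 4 hold the E-box (both of SETDB1, 1 of CBX5 and that of EHMT2). A match describes the letters and not a bound site.

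HNRNPA2B1, which encodes an abundant RNA-binding protein of pre-mRNA processing, shares this upstream region with CBX3 and could be compared with it. The no-guide pair read 307 and 303 RPKM, the non-targeting pair 317 and 307 RPKM, the guide 1 pair 277 and 269 RPKM and the guide 2 pair 254 and 239 RPKM, every e3 library below every control. It fell by 0.25 ± 0.06 with the e3 guides against all controls (adjusted p = 0.0384) and by 0.26 ± 0.06 against the non-targeting guide (adjusted p = 0.0469). The first of these calls was lost in 12 of 15 alternatives, without changing direction, with adjusted p-values from 0.0530 to 0.474. Between the controls it differed by 0.03 ± 0.04 (adjusted p = 0.672), while CBX3 gave 0.20 ± 0.07 there (adjusted p = 0.118). The difference between these neighbours was not tested. C2, which starts head to head with EHMT2, did not exceed 0.278 RPKM, and the other divergent neighbours in the annotation, ARRDC1-AS1 for EHMT1 and LOC107985204 for SETDB1, were not analysed here.

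EHMT2 (G9a, ENSG00000204371.6, chromosome 6) was highest in the non-targeting pair, at 24.9 and 28.2 RPKM, and read 23.3 and 22.4 RPKM in the no-guide pair, 22.8 and 21.3 RPKM in the guide 1 pair and 22.9 and 23.5 RPKM in the guide 2 pair. Both non-targeting libraries lay above the other 6, an order whose share among all tested genes was not counted. EHMT1 (GLP, ENSG00000181090.12, chromosome 9) was lowest in a library of guide 2, and read 18.95 and 22.4 RPKM in the no-guide pair, 16.8 and 18.5 RPKM in the non-targeting pair, 18.9 and 19.5 RPKM in the guide 1 pair and 16.6 and 17.8 RPKM in the guide 2 pair. For EHMT1 the no-guide and guide 1 ranges overlapped, as did those of the non-targeting guide and guide 2, and the first of these pairs of groups lay above the other. Neither gene passed in any comparison. The largest changes were -0.22 ± 0.08 for EHMT2 in the e3 libraries relative to the non-targeting pair (adjusted p = 0.164) and -0.22 ± 0.10 for EHMT1 between the control groups (adjusted p = 0.230). The ratio of EHMT1 to EHMT2 was 0.674 and 0.656 in the non-targeting libraries and 0.723 to 1.00 in the other 6.

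DNMT1 (ENSG00000130816.8, chromosome 19), the maintenance DNA methyltransferase, was the gene of the 9 whose e3 libraries all lay below all control libraries. The no-guide pair read 62.3 and 59.8 RPKM, the non-targeting pair 57.0 and 59.0 RPKM, the guide 1 pair 53.8 and 52.5 RPKM and the guide 2 pair 52.2 and 54.1 RPKM. The same order without overlap, lower with the e3 guides, held for 7.51% of tested genes. The mean of the controls was 59.5 ± 2.21 RPKM and that of the e3 libraries 53.2 ± 0.921 RPKM (SD, n = 4 each), a ratio of 0.893. That change of -0.16 ± 0.05 did not pass in limma over all genes (adjusted p = 0.120), and an exact two-sided permutation test of this single value gave 0.0286, the smallest that 70 arrangements can give. Separate ranges always give that value, so it adds nothing to them, and the test treats the 8 libraries as exchangeable although they come in 4 groups. The guides gave the same value, with a difference of 0.00 ± 0.06 between them (adjusted p = 1.00, interval 0.913-fold to 1.10-fold).

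Against no guide alone DNMT1 fell by 0.20 ± 0.06 (limma, adjusted p = 0.0493), where 16.7% of tested genes were called, 8.03% as lower, and against the non-targeting libraries the change of -0.12 ± 0.05 did not pass (adjusted p = 0.239). The first of these lies at the threshold: it was lost with median-ratio scaling between libraries (-0.17, adjusted p = 0.0777), with a pseudocount of 0.1 (adjusted p = 0.0512), and when any of the 6 libraries was left out. Those values ran from -0.23 without the second no-guide library (adjusted p = 0.138) to -0.17 without the first (adjusted p = 0.248). Between 1111 and 1640 reads lay behind each value, an error from counting of 2.47 to 3.0%. The window at its start, shown because this gene had separate ranges, is rich in CG pairs (30 in 300 bases, against a median of 14 over all windows) and holds none of the 3 motifs marked above:
DNMT1, minus strand, chr19:10194904-10195203: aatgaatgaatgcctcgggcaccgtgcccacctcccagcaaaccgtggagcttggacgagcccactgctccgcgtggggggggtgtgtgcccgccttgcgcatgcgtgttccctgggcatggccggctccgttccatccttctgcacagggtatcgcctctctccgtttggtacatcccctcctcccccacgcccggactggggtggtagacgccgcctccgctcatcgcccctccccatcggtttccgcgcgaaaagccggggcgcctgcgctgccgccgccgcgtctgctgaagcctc

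With the e3 guides against all controls 0 of the 9 genes were called in limma, where 5.2% of tested genes were, and 2 of them, CBX3 and DNMT1, had an unadjusted p under 0.05, as did 22.2% of tested genes. The exact permutation test gave 0.0571 to 0.629 for the 8 genes other than DNMT1. Their log2 changes ran from -0.20 (ATF7IP) to -0.04 (TRIM28), with a median of -0.12 beside -0.02 over all genes tested. All 9 were below 0, as were 53.4% of tested genes. The lower 95% bound was 0.680-fold for ATF7IP, and for the other 8 it was 0.762-fold (SETDB1) or higher.

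Against the non-targeting guide alone 1 of the 9 was called, CBX3, and 6 were below 0 (median -0.04). There 3 genes, CBX3, EHMT2 and DNMT1, had all e3 libraries below both non-targeting libraries, a pattern of 16.3% of tested genes. Against no guide alone 1 was called, DNMT1, beside 16.7% of tested genes. All 9 were below 0 there (median -0.17), beside 54.6% of tested genes (median -0.03). The e3 libraries were all lower for SETDB1, ATF7IP, CBX5 and DNMT1, as for 22.6% of tested genes. These comparisons share the e3 libraries. The non-targeting guide against no guide called 1, CBX5, beside 12.4% of tested genes. It placed 6 of the 9 below 0 (median -0.15), beside 51.2% of tested genes (median -0.01). CBX3, EHMT2 and TRIM28 were the others. Guide 1 against the controls called 0 of the 9 (8.99% of tested genes), with an unadjusted p under 0.05 for 4 (24.4% of tested genes). Guide 2 called 0 (14.5%), with an unadjusted p under 0.05 for 2 (28.7%). The guides differed from each other for 0 (0.0286%), with an unadjusted p under 0.05 for 1, CBX5 (10.4%). With CBX3 in guide 1 the call depended on the filter: with a minimum mean of 5 RPKM it passed (-0.23, adjusted p = 0.0447).

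**Figure D3:**
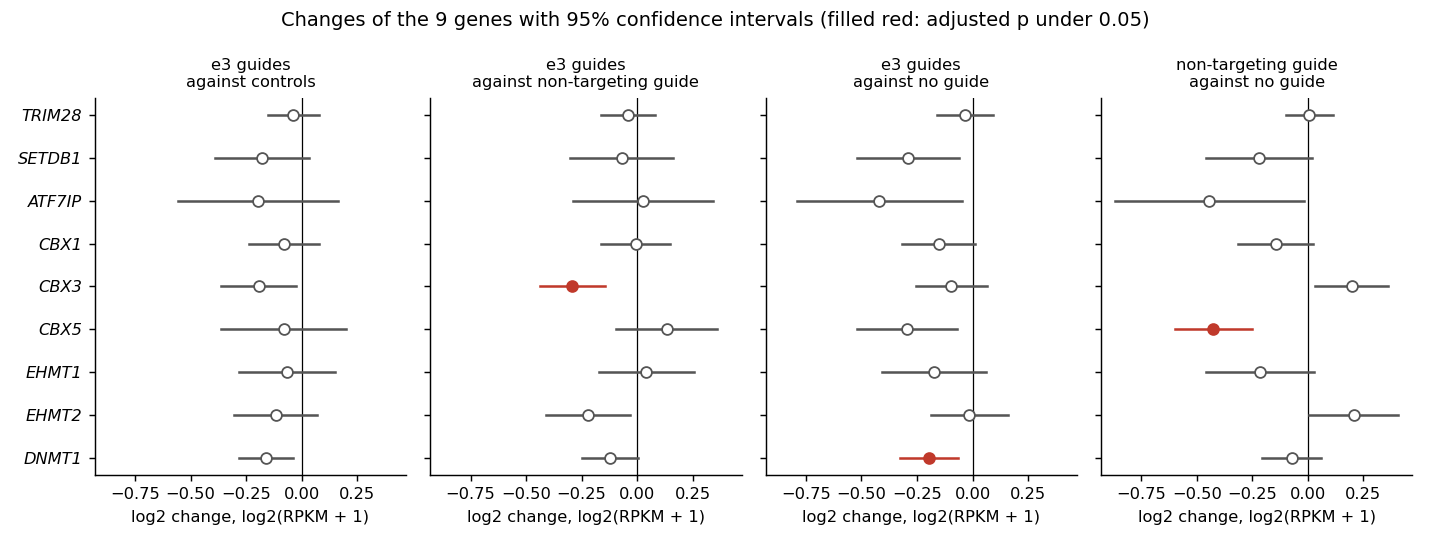
Change of each gene (points, log2(RPKM + 1) scale on the x axis) with its 95% confidence interval (lines) in 4 comparisons; filled red points have an adjusted p under 0.05. CBX3 passes against the non-targeting guide, DNMT1 against no guide, CBX5 between the controls, and no gene passes with the e3 guides against all controls.

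The wider machinery of silent chromatin, enzymes that oppose it and genes that it silences were covered by 11 lists of 106 genes, 87 of them tested. Among the 87 were 5 imprinted genes and 1 germline gene, which are targets and not machinery. The lower calls counted here include the imprinted genes PEG10 and, with guide 2, MEST. With the e3 guides 0 of the 87 were called in limma against all controls, beside 5.2% of all tested genes. An unadjusted p under 0.05 was found for 16 of the 87 and for 22.2% of all tested genes. Relative to the non-targeting guide alone 0 were called, beside 6.84%, and 13 had an unadjusted p under 0.05, beside 21.9%. Against no guide alone 3 were higher and 9 lower, 13.8% beside 16.7% of all tested genes, and between the controls 1 was higher and 3 lower, 4.6% beside 12.4%. Guide 2 against the controls called 1 higher and 9 lower, 11.5% beside 14.5%, and guide 1 called 2 lower, 2.3% beside 8.99%.

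Of the NuRD complex, a nucleosome remodeller and deacetylase that TRIM28 contacts through CHD3, 13 of 13 listed genes were tested and had a median change of -0.10 with the e3 guides against all controls. Its remodeller CHD4 went from 59.4 ± 0.983 to 52.0 ± 2.94 RPKM (SD, n = 4 each; change -0.19, adjusted p = 0.0975), and the deacetylases HDAC1 and HDAC2 changed by -0.16 each (adjusted p = 0.233 and 0.189). HDAC1 fell against no guide alone, by 0.23 (adjusted p = 0.0494), and gave -0.14 between the controls and -0.09 relative to the non-targeting pair. Of the HUSH complex, which spreads H3K9 methylation with SETDB1, and its partner MORC2, MPHOSPH8 gave 0.21 (adjusted p = 0.190), TASOR -0.16 (0.227) and MORC2 -0.11 (0.546). The list's median was -0.07.

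Among other H3K9 methyltransferases SUV39H2 went from 5.12 ± 0.887 to 3.67 ± 0.870 RPKM (SD, n = 4 each; -0.40, adjusted p = 0.194), SUV39H1 gave -0.13 and PRDM2 0.10. Of the enzymes that remove H3K9 methylation, 11 of 11 were tested, with a median of -0.11. KDM4A gave -0.24, JMJD1C -0.25 and KDM3B -0.19 (adjusted p = 0.198, 0.243 and 0.258). Against no guide alone KDM4A fell by 0.40 and KDM3A rose by 0.44 (adjusted p = 0.0180 and 0.0203), and KDM3A also rose between the controls, by 0.45 (adjusted p = 0.0354). KDM4A gave -0.305 between the controls (adjusted p = 0.0829). Relative to the non-targeting pair KDM4A gave -0.09 and KDM3A -0.01. KDM4B fell with guide 2, by 0.39 (adjusted p = 0.0463).

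In DNA methylation, 11 of 13 listed genes were tested (median -0.06). DNMT3B, which sets new methylation, went from 6.12 ± 0.814 to 4.23 ± 0.622 RPKM (SD, n = 4 each; -0.45, adjusted p = 0.0773), with all e3 libraries below all controls. It fell with guide 2 against the controls (by 0.54, adjusted p = 0.0370) and against no guide alone (by 0.56, adjusted p = 0.0423). ZBTB38, a reader of methylated DNA, was higher in every e3 library than in any control (0.41, adjusted p = 0.0561) and rose with guide 2 (0.54, adjusted p = 0.00658) and against no guide alone (0.48, adjusted p = 0.0374). TET3, which oxidizes methylcytosine, averaged 11.02 RPKM in the no-guide pair and 6.01 RPKM in the non-targeting pair, and fell by 0.78 between those controls (adjusted p = 0.00786). With the e3 guides against all controls its change was -0.56 (adjusted p = 0.155), and relative to the non-targeting pair -0.17, neither of which passed. It fell against no guide alone (by 0.95, adjusted p = 0.00291), with guide 1 (by 0.69, adjusted p = 0.00990) and with guide 2 (by 0.43, adjusted p = 0.0434).

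Of the HP1 partners LBR, the inner nuclear membrane receptor that binds HP1, was closest to the threshold with the e3 guides against all controls: 24.7 ± 2.59 to 19.2 ± 1.09 RPKM (SD, n = 4 each; -0.34, adjusted p = 0.0528), with no overlap. It fell with guide 2 (by 0.37, adjusted p = 0.0266) and against no guide alone (by 0.43, adjusted p = 0.0155), and with a minimum mean of 5 RPKM it passed against all controls (adjusted p = 0.0376). ADNP gave -0.14 and the assembly factor CHAF1B 0.18. HP1BP3 fell between the controls, by 0.33 (limma, adjusted p = 0.0355). Among 16 genes for SUMO conjugation, a modification that lets TRIM28 bind SETDB1 and NuRD, the median was -0.04, with UBA2 at -0.19 (adjusted p = 0.0750), SUMO3 at 0.19 (0.114) and PIAS3 at 0.28 (0.244). With guide 2 SUMO2 fell by 0.14 and UBA2 by 0.22 (adjusted p = 0.0203 and 0.0355), and against no guide alone SUMO3 rose by 0.24 (adjusted p = 0.0378). The G9a and GLP partners WIZ, CDYL and ZNF644 gave 0.01, -0.02 and 0.08.

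Polycomb repressive complex 2 silences through another mark, methylation of lysine 27, and is not recruited by KRAB through TRIM28. Its 9 tested genes had a median of -0.11, close to that of the 9 KRAB corepressor genes, with PHF1 at 0.30, AEBP2 at -0.42 and JARID2 at 0.24 (adjusted p = 0.0651, 0.0689 and 0.192). Against no guide alone 3 of the 9 fell, EZH1 by 0.64, AEBP2 by 0.56 and PHF19 by 0.32 (adjusted p = 0.0274, 0.02001 and 0.0235), and AEBP2 fell with guide 2 by 0.58 (adjusted p = 0.00218). Between the controls EZH1 gave -0.59, AEBP2 -0.28 and PHF19 -0.28. Relative to the non-targeting pair they gave -0.05, -0.29 and -0.05, and none of these values passed. PHF1 and AEBP2 passed with a minimum mean of 5 RPKM (adjusted p = 0.0465 and 0.0499). The 16 DNA replication genes, included because DNMT1 acts behind the replication fork, had a median of 0.04, with RRM1 at 0.16 and GINS1 at 0.24 (both adjusted p near 0.19), and 0 were called in limma. Against no guide alone MCM2 fell by 0.42 and RRM2 rose by 0.36 (adjusted p = 0.00903 and 0.00890). Both also passed between the controls, at -0.37 and 0.31 (adjusted p = 0.0203 and 0.0424). Relative to the non-targeting pair they gave -0.04 and 0.04. With guide 1 RRM1 rose by 0.24 (limma, adjusted p = 0.0444), and with guide 2 MCM2 fell by 0.27 (limma, adjusted p = 0.0389).

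Genes whose silencing is known to depend on this machinery were mostly low in all groups. Of 10 germline genes 1 passed the filter on low values, BRDT, at 4.56 to 7.17 RPKM, with a change of 0.12 (adjusted p = 0.672). DAZL, DDX4, SYCP1, TDRD1 and TEX11 were listed at 0 in all 8 libraries, and MAEL, SYCP3, STK31 and SOHLH2 did not exceed 0.525 RPKM. Of 12 imprinted genes 5 passed the filter. PEG10 averaged 94.0 RPKM in the no-guide pair and 45.0 RPKM in the non-targeting pair and fell by 1.05 between them (adjusted p = 0.000249), while its change against the non-targeting guide alone was -0.02 (adjusted p = 0.945). MEST gave -0.33 (adjusted p = 0.0931) and GRB10 -0.22 with the e3 guides against all controls, and MEST fell with guide 2 (by 0.43, adjusted p = 0.0406). PEG10 fell against no guide alone (by 1.06, adjusted p = 0.000165), with guide 1 (by 0.49, adjusted p = 0.00677) and with guide 2 (by 0.59, adjusted p = 0.00170). H19, IGF2, PEG3, MEG3 and NDN did not exceed 0.277 RPKM.

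**Figure D4:**
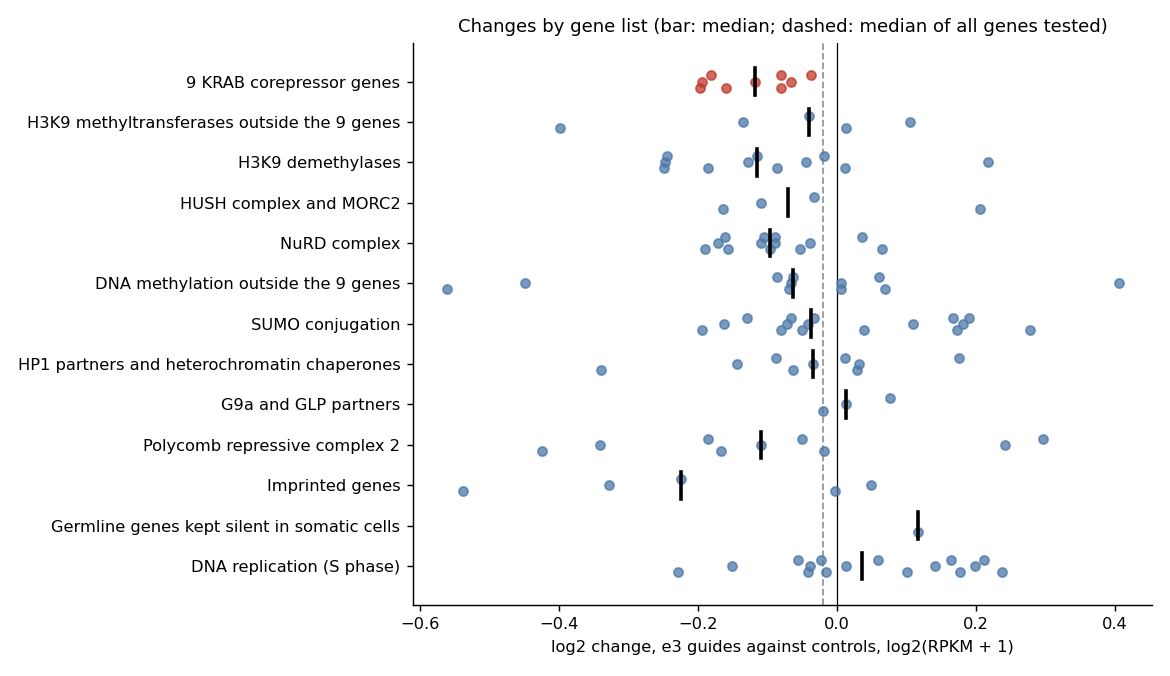
Change with the e3 guides against all controls (x axis, log2(RPKM + 1) scale) for the 9 KRAB corepressor genes (red) and for each tested gene of 11 chromatin lists and the DNA replication list (blue); black bars are list medians and the dashed line is the median of all genes tested. The 9 genes lie between -0.20 and -0.04, within the spread of the other lists. The 11 chromatin lists include imprinted and germline genes.

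Across the 8 libraries the 9 genes did not form a single pattern: the 36 pairwise Pearson correlations of log2(RPKM + 1) ran from -0.38 (EHMT1 with CBX3) to 0.83 (SETDB1 with DNMT1). CBX3 and EHMT2 had 0.80, and TRIM28 had 0.10 with SETDB1. Points share a group in pairs, so these are descriptions. The tested genes of at least 5 RPKM most like TRIM28 were STK32C (r = 0.97), GTSE1 (0.95) and C19orf52 (0.94). Most like SETDB1 were DUSP14 (0.97), CEP350 (0.97) and TNRC6A (0.96), each highest without a guide, DUSP14 for instance at 45.6 and 44.2 RPKM there and 27.0 to 33.3 RPKM in the other 6. For DNMT1 they were ADNP (0.98), G2E3 (0.98) and MRPL45 (0.97), each with all e3 libraries below all controls. All of these genes were picked for their likeness, among the 9034 tested genes at that level. Their shared features, highest without a guide for SETDB1 and separate ranges for DNMT1, follow from the choice and carry no test.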

How the data were processed

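RNA was measured in 8 libraries of 4 groups, with groups and replicate numbers taken from the sample titles and table columns matched to them by name. The deposited values are RPKM, per the file headers, 1 column per library. The submitters' processing notes list hg19 and Cufflinks but no role for either, and the aligner, counting, strand setting and annotation release are not given in the sources used here. RPKM carries no depth, so reads were inferred from the steps between low values, and 13977 of 13979 tested genes (99.99%) came out whole to within 0.03 reads.

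Tests used limma 3.58.1 (R 4.3.3, trend, two-sided) on log2(RPKM + 1) for genes averaging 1 RPKM or more, with Benjamini-Hochberg adjustment over all of them and calls at an adjusted p under 0.05. The e3 guides were compared with controls in models of 2 groups, and other comparisons used a model of 4 groups. In the model of 4 groups the p-values measure the spread between libraries of a group. That spread may be technical, since the labels do not name separate cultures. In the models of 2 groups it also holds differences between the guides and, against all controls, between the controls. On simulated data of 13979 genes with the e3 design, the test called 80 of 100 genes shifted by a log2 of 1 and 50 of 100 shifted by 0.5, beside 8 false ones. Between the control groups it called 51 and 11 of 100, and for guide 2 against guide 1 50 and 18 of 100. The simulated libraries had only the spread within groups, without differences between the controls or between the guides. The real values hold such differences, so the 80 and 50 of 100 may overstate what the e3 test could call. The 9 genes and the lists were chosen with earlier results of these data known. Besides the 9 genes, the text names divergent neighbours within 1000 bases, up to 3 genes of each list by smallest p for the e3 guides against all controls, the 3 nearest patterns for each of TRIM28, SETDB1 and DNMT1, and MYC. List genes that passed in another comparison, genes at or near 0, and the pseudogene were named after their values were seen. The passes of the cell type markers are not all given. The alternatives were a pseudocount of 0.1, no filter or a minimum mean of 5 RPKM, median-ratio scaling, the replicate block, libraries left out, group means and an estimated correlation within groups.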

Additional observations from a re-analysis of the deposited data

Results flagged for a closer look

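CBX1 (HP1 beta) in the 4 e3 libraries had a sample far from the others: the first library of guide 1 stood at 73.0 RPKM and the other 3 at 64.1 to 65.4 RPKM, so that its gap to the nearest was 0.859 of the range, above the critical value of 0.829. It was looked for in 18 sets of 4 libraries, and chance flags about 1 in 20. Without that library the change of CBX1 with the e3 guides against all controls was -0.12 in place of -0.08, and it did not pass either way.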

How the results depend on the processing

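With the e3 guides against all controls 0 of the 9 genes were called under all 15 alternatives, while the count over all genes moved from 727 to 406 without a filter, 387 with the replicate block, 1 with group means as samples and 256 with an estimated correlation, and to between 180 and 580 with a library left out. Against the non-targeting guide the 1 called gene (CBX3) became 0 without a filter (adjusted p = 0.0638), with the replicate block (0.0610) and without any library, and all genes moved from 956 to 379 without a filter, to 597 with the block, and to between 6 and 808 with a library left out. Against no guide the 1 called gene (DNMT1) became 0 with a pseudocount of 0.1, median-ratio scaling, the replicate block (adjusted p = 0.0830) and without any library, and all genes gave 945 to 2023 of 2336 with a library left out. Between the controls 0 to 1 of the 9 (CBX5) and 872 to 1559 of 1728 genes were called with a library left out. Guide 1 against the controls called 1 of the 9 (CBX3) in place of 0 with a minimum mean of 5 RPKM, and 461 to 1035 of 1257 genes with a library left out. For guide 2 that range was 885 to 1852 of 2022. Guide 2 against guide 1 gave 9 genes without a filter, 24 with a minimum mean of 5 RPKM, 1 with the replicate block and 0 to 4 with a library left out, in place of 4. The replicate numbers do not pair the libraries: deviations of same-numbered libraries correlated across genes by -0.02 to 0.01. The block changed no other call among the 9 genes. No called value reversed. The exact permutation p was also computed with a pseudocount of 0.1 and median-ratio scaling, added after the data were seen, and at its floor for DNMT1 it says nothing about stability. Where a call was lost, the cause was not tested. Depth limits SETDB1 and ATF7IP most, with as few as 140 and 86 reads.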
